A study of Mus musculus with 9 samples.

Results

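The rows described here belong to the Hox clusters, the runs of homeobox genes that lie side by side on 4 mouse chromosomes, together with the antisense and intergenic RNAs named after them. They were chosen by symbol alone, as the rows named Hoxa, Hoxb, Hoxc or Hoxd with a number, Hoxaas, Hoxb followed by os, Hotair or Hottip. The table held 22 such rows among 14020 genes: 11 of the HoxA cluster on chromosome 6, 10 of the HoxB cluster on chromosome 11, 1 of the HoxC cluster on chromosome 15 and 0 of the HoxD cluster on chromosome 2. Of these, 18 reached a normalized count of at least 10 in at least 3 libraries and were tested. Hoxa6, Hoxa7, Hotairm2 and Hoxc4 did not reach that level and are given as values only.

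The RNA came from mouse hepatic stellate cells, liver pericytes that store vitamin A at rest and turn into matrix-producing myofibroblasts. All groups were kept in DMEM with 10% fetal bovine serum for 4 days with no other treatment. The 9 libraries fell into 3 groups of 3: cells labelled as double knock-out of Nbr1 and Sqstm1 (DKO), cells with a knock-out of Sqstm1 alone (Sqstm1 KO), and wild-type cells (WT). Sqstm1 encodes the autophagy receptor p62 and Nbr1 a related receptor. The labels give no strain, age or sex, no Cre driver, and nothing on whether replicates were separate animals or cultures, so p-values measure the spread between these samples.

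Each library held between 819677 and 1467793 counted reads, so a Hox row with a normalized count of 10 rests on few reads. Sqstm1 averaged 45.7 ± 17.7 normalized counts in the libraries labelled DKO, 52.8 ± 29.8 in Sqstm1 KO and 240.4 ± 16.1 in WT (SD, n = 3 each). Nbr1 averaged 90.7 ± 17.5 in the libraries labelled DKO, 78.9 ± 8.85 in Sqstm1 KO and 101.5 ± 7.64 in WT, with no call, so its reads did not set the DKO label apart. In Sqstm1 KO, replicate 3 stood apart from the other libraries of its group, with correlations of 0.853 and 0.847 across genes, against 0.943 between replicates 1 and 2. Of the stellate cell markers listed, 6 of 15 had rows in the table, and Lrat, Des and Reln had none. The 8 markers of activated stellate cells summed to 4502 to 6588 normalized counts in the libraries labelled DKO, 5499 to 6317 in Sqstm1 KO and 1675 to 1817 in WT. Of the 8, 7 had a positive log2 fold change against WT in each mutant group. The lowest log2 fold change among them was -0.39 for DKO and -0.81 for Sqstm1 KO, so not every marker was higher. The 4 listed macrophage markers with rows summed to 14.3 to 29.3 in the libraries labelled DKO, 8.68 to 12.3 in Sqstm1 KO and 20.3 to 35.4 in WT. These sums followed Cd14, which averaged 11.1 in the libraries labelled DKO, 1.29 in Sqstm1 KO and 17.6 in WT. The other markers did not share that order, with means of 4.04, 3.98 and 4.28 for Cd68, 3.20, 3.05 and 1.97 for Csf1r and 2.67, 2.71 and 1.77 for Mpeg1 in DKO, Sqstm1 KO and WT. No listed hepatocyte or lymphocyte marker had a row. The mesothelial gene Wt1 had 1.91 to 12.6 normalized counts in the libraries labelled DKO and 0 in all Sqstm1 KO and WT libraries. The Y-linked gene Ddx3y averaged 49.0 ± 5.23 normalized counts in the libraries labelled DKO, 0 in Sqstm1 KO and 73.5 ± 4.93 in WT. Sqstm1 KO thus differed from both other groups in a Y-linked gene. In that group, genotype cannot be told apart from the sex of the animals or a loss of the Y chromosome. For the cell markers in bulk RNA, fewer cells with a transcript and less transcript per cell cannot be told apart. The part of all these differences in the Hox values was not tested.

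Hox genes encode transcription factors that give cells along the body axis their position, and their order along the chromosome follows the order in which they are switched on from head to tail. The genes at the 3′ end of a cluster act in anterior regions and respond early to retinoic acid, and those at the 5′ end act in posterior regions. Fibroblast-like cells of adult organs keep a Hox pattern that marks where they come from. Polycomb proteins hold the silent genes of a cluster closed, Trithorax proteins keep the active ones open, and PBX and MEIS proteins bind DNA together with the HOX proteins.

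The protein-coding genes whose counts passed the test share a DNA-contacting stretch, shown here for Hoxb6, Hoxb7 and Hoxa10 so that the bases these paralogs share can be seen. The sequences are codons 41 to 60 of the homeobox, which cover most of the third helix of the homeodomain, 5′ to 3′ on the coding strand, from GENCODE on GRCm38, with capitals for the 39 of 60 bases that are the same in all 3.
Hoxb6, chr11:96300809-96300868, plus strand: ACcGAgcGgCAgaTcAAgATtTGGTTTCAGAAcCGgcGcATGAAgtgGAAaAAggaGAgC
Hoxb7, chr11:96289505-96289564, plus strand: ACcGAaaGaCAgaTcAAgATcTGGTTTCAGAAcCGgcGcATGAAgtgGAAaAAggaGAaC
Hoxa10, chr6:52232554-52232613, minus strand: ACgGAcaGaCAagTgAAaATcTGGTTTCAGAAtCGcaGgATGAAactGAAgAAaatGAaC
Over the whole homeobox, Hoxb6 and Hoxb7 shared 88.9% of bases, Hoxb5 and Hoxb6 80.6%, Hoxb5 and Hoxb7 81.1%, and Hoxa10 and Hoxb6 63.3%. The longest identical run between the homeoboxes of Hoxb6 and Hoxb7 was 37 bases, and the longest between any pair of the genes in the table was 52 bases, for Hoxa6 and Hoxb4. How the authors' counting treated reads that match several genes is not given in the sources used here.

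In Sqstm1 KO cells, 5 of the 18 tested rows differed from WT. Hoxa10 was higher, and Hoxb5, Hoxb6, Hoxb7 and the antisense RNA Hoxaas3 were lower. In the libraries labelled DKO, 3 of the 18 differed from WT: Hoxaas3, Hoxb5 and Hoxb6 were again lower, while Hoxa10 had no read at all. The count for Sqstm1 KO against WT fell to 1, Hoxa10, without WT replicate 1. The count for DKO against WT was 9 when Sqstm1 KO replicate 3 was left out and 5 when replicate 1 of that group was. The called HoxB genes stand next to each other in the middle of their cluster, and limma did not call the HoxB genes on either side in these comparisons. Over all 10118 genes tested, 5.61% were called between Sqstm1 KO and WT, 2.43% higher and 3.18% lower, and 6.42% between DKO and WT, 4.11% higher and 2.31% lower. Both comparisons use the same WT libraries. Hoxa10 reached 10 normalized counts in Sqstm1 KO libraries and in no other, and Hoxaas3, Hoxb5 and Hoxb6 in WT libraries and in no other, so these rows entered the test through the group in which they were high, and the share of rows called is no measure of how often Hox genes differed.

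**Figure D1:**
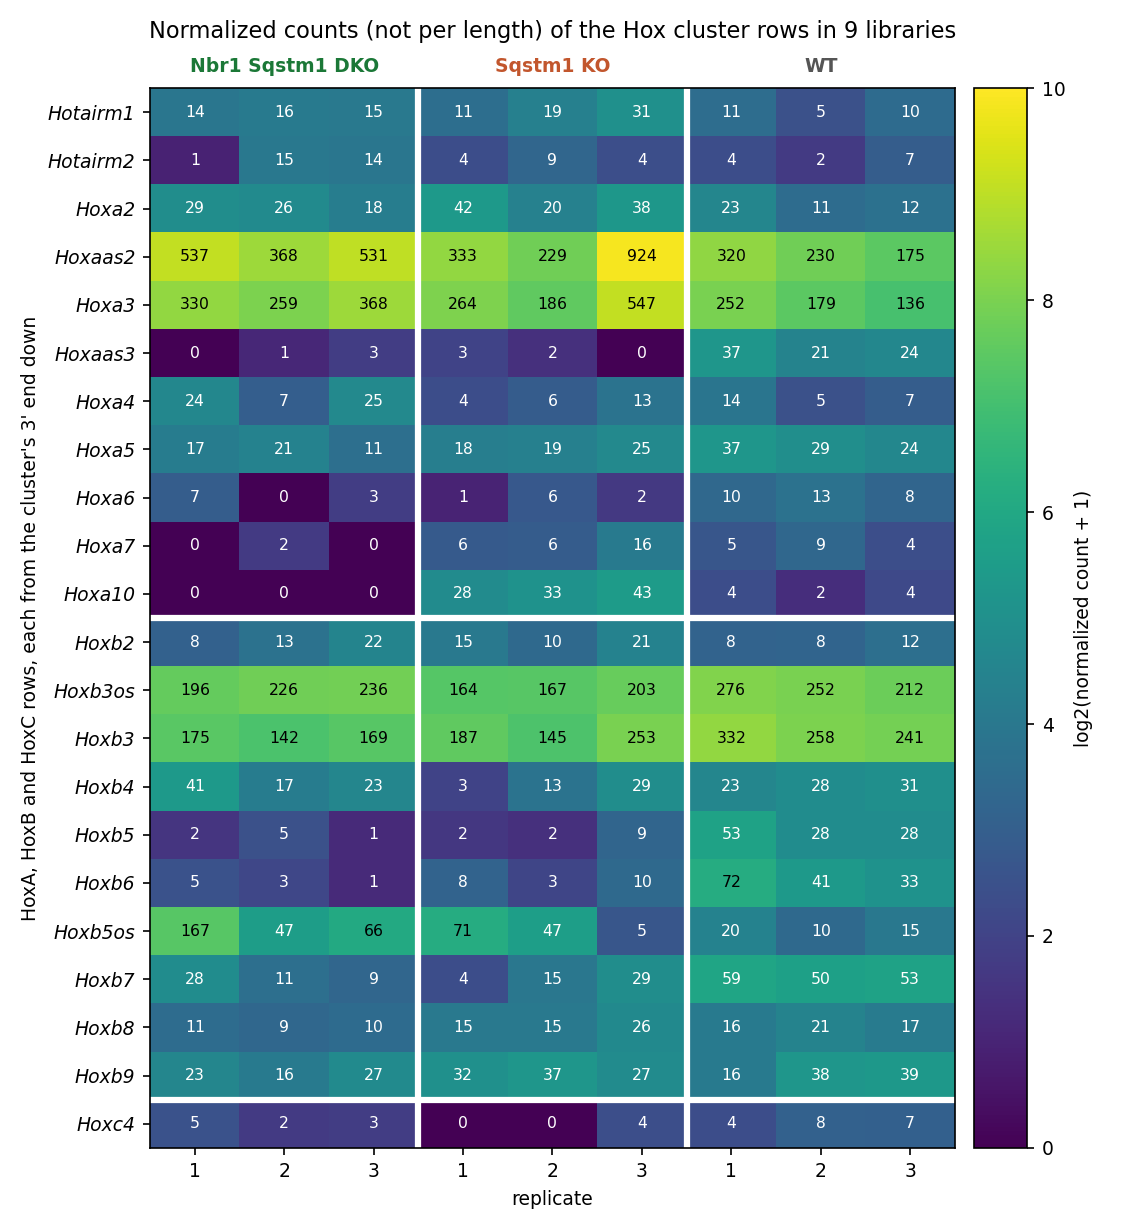
Normalized counts of the 22 rows (numbers in the cells, rounded) in each library, with colour as log2 of the normalized count plus 1, groups from left to right and each cluster running from its 3′ end at the top to its 5′ end. Levels are not per length, so they compare across a row and not down a column: Hoxb5, Hoxb6 and Hoxaas3 are bright in WT, and Hoxa10 is bright in Sqstm1 KO.

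Hoxb5, a gene that acts at the level of the neck and trunk, had 1.91, 4.57 and 1.27 normalized counts in the libraries labelled DKO, 2.04, 1.62 and 8.68 in Sqstm1 KO, and 53.1, 27.9 and 27.9 in WT. Every library of both mutant groups was below every WT library. The log2 fold change of Hoxb5 was -3.42 (SE 0.60, limma with Benjamini-Hochberg adjustment, adjusted p = 0.0031) for DKO against WT and -3.06 (SE 0.60, adjusted p = 0.0074) for Sqstm1 KO against WT. Hoxb6, its neighbour on the 5′ side, had 4.78, 3.42 and 1.27 in the libraries labelled DKO, 8.17, 3.25 and 9.76 in Sqstm1 KO, and 72.2, 41.4 and 33.4 in WT. Here too the WT libraries stood above all 6 others. The log2 fold change of Hoxb6 was -3.61 (SE 0.52, adjusted p = 0.00062) for DKO against WT and -2.66 (SE 0.52, adjusted p = 0.0070) for Sqstm1 KO against WT. Summed over the group, Hoxb5 had 7 reads in the libraries labelled DKO, 12 in Sqstm1 KO and 122 in WT, and Hoxb6 had 9, 21 and 163 reads in the same order.

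Hoxb7, which acts further back in the trunk, had 27.7, 11.4 and 8.92 normalized counts in the libraries labelled DKO, 4.08, 14.6 and 29.3 in Sqstm1 KO, and 58.6, 49.7 and 52.8 in WT. The groups did not overlap with WT, but in each mutant group the range of the libraries was larger than their mean. It fell in Sqstm1 KO against WT with a log2 fold change of -2.03 (SE 0.56, adjusted p = 0.0495). For DKO against WT the log2 fold change was -1.84 (SE 0.56, adjusted p = 0.0688), which missed the threshold. The Sqstm1 KO call of Hoxb7 was lost in 9 of 18 alternatives, with adjusted p from 0.0034 to 0.175, and the DKO value passed in 8 of 18, with adjusted p from 0.0047 to 0.245. WT replicate 1 held the highest value of Hoxb5, Hoxb6 and Hoxb7. Without it, neither Hoxb5 (adjusted p = 0.0680) nor Hoxb6 (adjusted p = 0.0667) was called between Sqstm1 KO and WT. Those were the highest adjusted p of each gene over 18 alternatives, and the lowest were 8.9e-05 and 2.5e-05. Both genes kept their call for DKO against WT in all 18 alternatives.

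**Figure D2:**
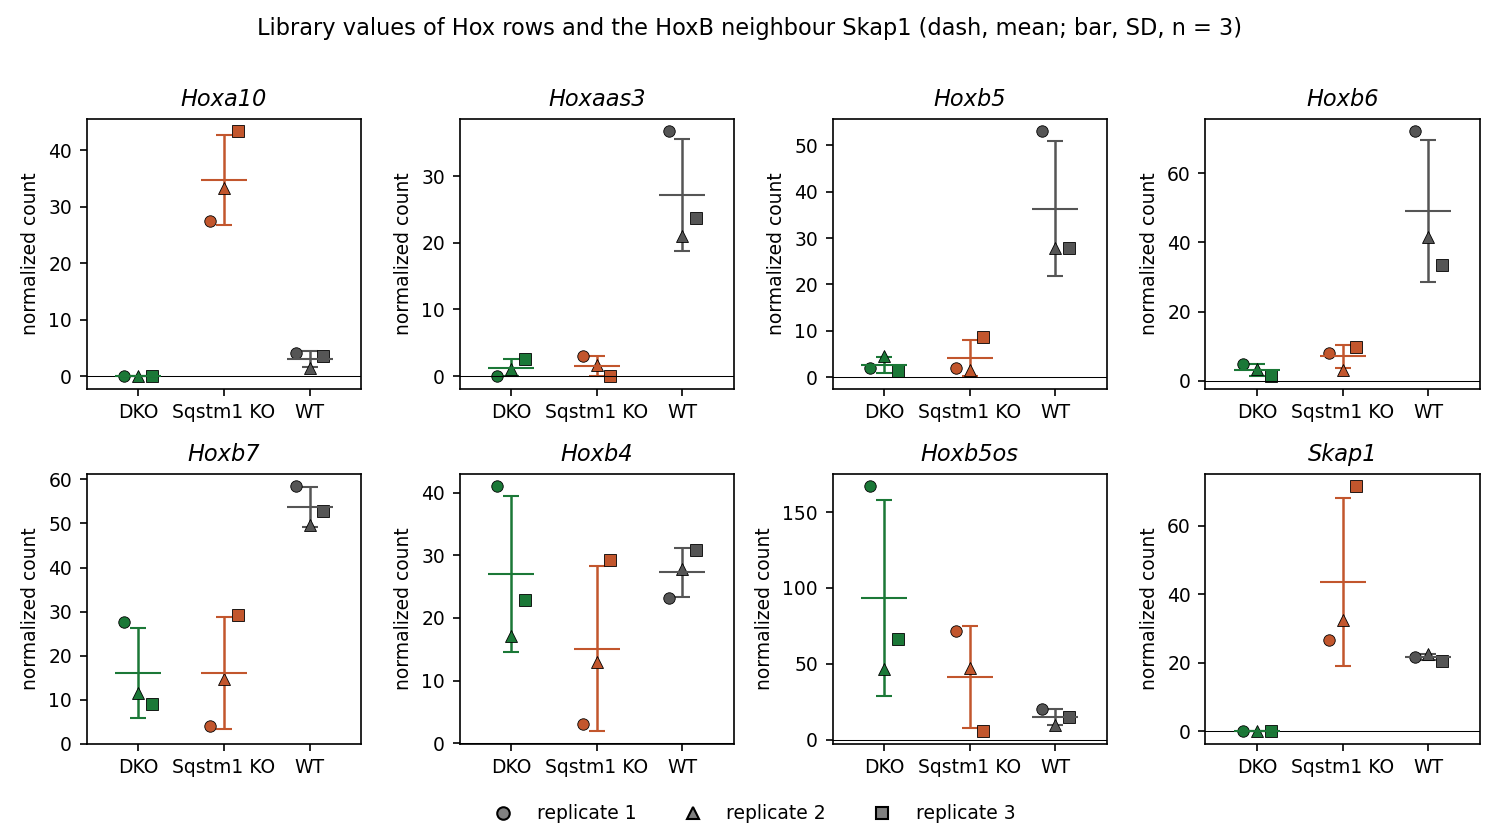
Normalized count of 7 Hox rows and of Skap1, the gene next to the HoxB cluster, in each library (marker shape gives the replicate), with the mean as a dash and the SD as a bar, for DKO, Sqstm1 KO and WT from left to right. Hoxb5 and Hoxb6 lie below 10 in all 6 mutant libraries, Hoxa10 lies above 27 only in Sqstm1 KO, and Hoxa10 and Skap1 are at 0 in the libraries labelled DKO.

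By limma, no other HoxB row was called in any comparison, while edgeR and DESeq2 both called the antisense RNA Hoxb5os between DKO and WT. Hoxb4, the 3′ neighbour of Hoxb5 and a gene also known for its action in blood stem cells, had 41.1, 17.1 and 22.9 normalized counts in the libraries labelled DKO, 3.06, 13.0 and 29.3 in Sqstm1 KO, and 23.2, 27.9 and 30.9 in WT. Its groups overlapped, and the 3 Sqstm1 KO libraries alone spanned the DKO mean and the WT mean. Hoxb8, on the 5′ side of Hoxb7, had 10.5, 9.13 and 10.2 in the libraries labelled DKO, 15.3, 15.4 and 26.0 in Sqstm1 KO, and 16.3, 21.1 and 17.0 in WT. All 3 libraries labelled DKO were below the others, by a log2 fold change of -0.80 (SE 0.36, adjusted p = 0.220) against WT and -0.82 (SE 0.36, adjusted p = 0.239) against Sqstm1 KO. Hoxb9, the most posterior HoxB gene in the table, averaged 21.9 ± 5.46 in the libraries labelled DKO, 32.0 ± 5.12 in Sqstm1 KO and 30.9 ± 12.7 in WT. At the anterior end, Hoxb2, which patterns the hindbrain, averaged 14 ± 7.10 in the libraries labelled DKO, 15.2 ± 5.44 in Sqstm1 KO and 9.33 ± 1.90 in WT. Hoxb3, also a hindbrain gene, averaged 162 ± 17.9 in the libraries labelled DKO, 195 ± 54.2 in Sqstm1 KO and 277 ± 48.7 in WT. Hoxb3 was below WT in all 3 libraries labelled DKO, without a call (log2 fold change -0.76, SE 0.26, adjusted p = 0.107).

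Neither of the HoxB antisense RNAs was called by limma. Hoxb5os, which is read from the opposite strand past Hoxb5 and Hoxb6, had 167, 46.8 and 66.2 normalized counts in the libraries labelled DKO, 71.5, 47.1 and 5.42 in Sqstm1 KO, and 20.4, 9.79 and 15.2 in WT. The libraries labelled DKO were all above WT, whereas Sqstm1 KO held both higher libraries and, in replicate 3, a value below all of WT. The log2 fold change of Hoxb5os was 2.39 (SE 0.71, adjusted p = 0.0642) for DKO against WT and 0.86 (SE 0.71, adjusted p = 0.551) for Sqstm1 KO against WT. The DKO value of Hoxb5os passed in 8 of 19 alternatives, edgeR and DESeq2 among them, with adjusted p from 0.00065 to 0.240. Without Sqstm1 KO replicate 3, the Sqstm1 KO value was 1.93 and passed (adjusted p = 0.0130), the lowest of 19 alternatives, which reached 0.923. Hoxb3os, antisense to Hoxb3 and Hoxb2, averaged 219 ± 20.7 in the libraries labelled DKO, 178 ± 21.4 in Sqstm1 KO and 247 ± 32.4 in WT, with no call. Whether counting used strand, and which strand, is not given in the sources used here. As a check on strand, Pcsk7 was set beside Tagln, a marker of activated stellate cells. Over all libraries Pcsk7 averaged 10632 normalized counts (2044 per kb of exon) and Tagln 271 (136 per kb). Limma, edgeR and DESeq2 each called both genes in both mutant groups against WT. Whether sense and antisense rows are mixed or exchanged was not tested, so the strand of the reads in a Hox row is not known. Hoxb5 and Hoxb5os share 100 of the 2786 exon bases of Hoxb5, Hoxb3 and Hoxb3os share 2250 of the 4251 of Hoxb3, and Hoxb6 and Hoxb7 have no exon on the other strand in GENCODE release 21. Without strand, reads of overlapping pairs cannot be told apart. If the opposite strand was counted, rows without such a partner, Hoxb6 and Hoxb7 included, would hold antisense reads, which was not tested either.

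Hoxa10, a posterior gene best known for patterning the uterus and the limb, had 0 reads in all 3 libraries labelled DKO, 27.6, 33.3 and 43.4 normalized counts in Sqstm1 KO, and 4.09, 1.51 and 3.64 in WT. The 3 groups did not overlap: Sqstm1 KO stood above WT in every library, and the libraries labelled DKO stood below WT. Between Sqstm1 KO and WT the log2 fold change was 3.17 (SE 0.57, adjusted p = 0.0039), with a mean of 34.7 ± 8.01 in Sqstm1 KO and 3.08 ± 1.38 in WT. This rested on 108 reads in Sqstm1 KO and 11 in WT. Against the 3 counts per group that a count of 0 allows, Hoxa10 was at least 31.3-fold lower in the libraries labelled DKO than in Sqstm1 KO (adjusted p = 6.7e-05). Against WT it was at least 2.78-fold lower, which did not pass (adjusted p = 0.0553). Its calls for Sqstm1 KO against WT and for DKO against Sqstm1 KO held in all 18 alternatives, and the value for DKO against WT passed in 5 of 18, with adjusted p from 0.0325 to 0.210.

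RefSeq on GRCm38.p6 lists 2 starts of Hoxa10, and both promoters are shown because this gene differed in both directions between the groups. Each runs from 250 bases before to 50 bases after the start, 5′ to 3′ on the strand of the gene, and capitals mark matches to the motifs searched on both strands: the TATA box core, the GC box, a half-site for retinoic acid receptors, a joint HOX and PBX site and the CCAAT box.
Hoxa10 upstream start, chr6:52240805-52241104, minus strand: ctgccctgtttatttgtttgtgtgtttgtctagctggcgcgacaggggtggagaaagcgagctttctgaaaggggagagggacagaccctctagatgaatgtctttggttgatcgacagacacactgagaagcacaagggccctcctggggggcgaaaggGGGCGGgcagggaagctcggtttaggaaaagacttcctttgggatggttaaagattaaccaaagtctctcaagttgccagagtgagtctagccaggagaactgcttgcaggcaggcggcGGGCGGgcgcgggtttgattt
Hoxa10 downstream start, chr6:52234890-52235189, minus strand: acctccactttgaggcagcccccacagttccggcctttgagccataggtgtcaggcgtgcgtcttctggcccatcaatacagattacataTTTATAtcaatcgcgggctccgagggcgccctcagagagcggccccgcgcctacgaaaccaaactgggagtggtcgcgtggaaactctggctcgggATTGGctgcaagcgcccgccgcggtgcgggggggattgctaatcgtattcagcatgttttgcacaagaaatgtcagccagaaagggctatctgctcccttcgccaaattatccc
The upstream promoter held the GC box, spelled GGGCGG, at -90 and 29 from the start. The downstream one held the TATA box core, spelled TATAAA, at -160 on the other strand and the CCAAT box at -64 on the other strand. Of 32851 promoters of this length, 35.7% held the GC box, 13.6% the TATA box core, 37.4% the CCAAT box, 16.3% the half-site (AGGTCA) and 0.746% the joint HOX and PBX site (TGATTGAT), on either strand. In all, 11 promoters of 10 genes of the set were found, and those of Hoxb5, Hoxb6 and Hoxb7 were not analysed here. The only match to the joint site among them lay at -111 of Hoxa2 on the other strand. A match is a run of letters and does not show that a factor binds there.

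Hoxaas3, an antisense RNA that runs from Hoxa3 to Hoxa7, had 0, 1.14 and 2.55 normalized counts in the libraries labelled DKO, 3.06, 1.62 and 0 in Sqstm1 KO, and 36.8, 21.1 and 23.6 in WT. The mutant groups overlapped each other near 0, and every WT library was above them. The log2 fold change of Hoxaas3 was -3.80 (SE 0.70, adjusted p = 0.0043) for DKO against WT and -3.64 (SE 0.70, adjusted p = 0.0065) for Sqstm1 KO against WT. Over a group there were 3 reads in the libraries labelled DKO, 5 in Sqstm1 KO and 94 in WT. Without WT replicate 1 the Sqstm1 KO call was lost (adjusted p = 0.0631, the highest of 18 alternatives, with 6.4e-05 the lowest), and the DKO call held in all 18. Hoxaas3 shares 586 exon bases with Hoxa7 and 297 with Hoxa3, both on the other strand. Hoxa7 had 0, 2.28 and 0 in the libraries labelled DKO, 6.13, 6.49 and 16.3 in Sqstm1 KO, and 5.45, 9.04 and 4.24 in WT. Hoxa7 was thus lowest in the libraries labelled DKO, on 2 reads in all, and its Sqstm1 KO and WT libraries overlapped, unlike those of Hoxaas3.

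Towards the 3′ end of HoxA no row was called. Hoxa3, which patterns the throat and its glands, had 330, 259 and 368 normalized counts in the libraries labelled DKO, 264, 186 and 547 in Sqstm1 KO, and 252, 179 and 136 in WT. The antisense RNA Hoxaas2, with which it shares 503 exon bases, had 537, 368 and 531 in the libraries labelled DKO, 333, 229 and 924 in Sqstm1 KO, and 320, 230 and 175 in WT. Both rows were highest in Sqstm1 KO replicate 3, and their libraries labelled DKO all lay above WT. The log2 fold change for DKO against WT was 1.01 for Hoxaas2 (SE 0.42, adjusted p = 0.184) and 0.78 for Hoxa3 (SE 0.36, adjusted p = 0.230). Hoxa2, which patterns the second arch and the hindbrain, averaged 24.3 ± 5.70 in the libraries labelled DKO, 33.4 ± 11.5 in Sqstm1 KO and 15.3 ± 6.87 in WT. Hotairm1, a long noncoding RNA at the 3′ edge of the cluster, averaged 15.2 ± 0.823 in the libraries labelled DKO, 20.7 ± 10.2 in Sqstm1 KO and 8.57 ± 3.52 in WT. Hotairm1 was above WT in all 6 mutant libraries, without a call in either comparison.

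In the middle of HoxA, Hoxa4 averaged 18.7 ± 10.3 normalized counts in the libraries labelled DKO, 7.86 ± 4.62 in Sqstm1 KO and 8.27 ± 4.76 in WT. Hoxa5, which is needed for the lung, averaged 16.4 ± 4.60 in the libraries labelled DKO, 20.9 ± 3.52 in Sqstm1 KO and 29.9 ± 6.58 in WT, without a call. Hoxa6 had 6.69, 0 and 2.55 in the libraries labelled DKO, 1.02, 5.68 and 2.17 in Sqstm1 KO, and 9.53, 12.8 and 8.49 in WT. Its WT libraries were thus the highest, on 38 reads in all. Hotairm2 ranged from 0.956 to 14.8 in the libraries labelled DKO, from 4.08 to 8.93 in Sqstm1 KO and from 2.26 to 6.67 in WT. Hoxc4, the only HoxC row, ranged from 2.28 to 4.78 in the libraries labelled DKO, from 0 to 4.34 in Sqstm1 KO and from 4.09 to 7.53 in WT. These last rows were not tested, and other HoxC genes, the HoxD genes and Hotair and Hottip were not analysed here.

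Between DKO and Sqstm1 KO, 1 of the 18 tested rows was called, against 5.93% of all genes, 4.42% higher and 1.51% lower. That row was Hoxa10, lower in the libraries labelled DKO as given above, and without Sqstm1 KO replicate 3 the count was 2, with Hoxb4. Hoxb5, Hoxb6, Hoxb7 and Hoxaas3 had log2 fold changes of -0.36 (SE 0.60, adjusted p = 0.788), -0.95 (SE 0.52, adjusted p = 0.351), 0.19 (SE 0.56, adjusted p = 0.890) and -0.16 (SE 0.70, adjusted p = 0.928) for DKO against Sqstm1 KO. A missed threshold does not show that the groups were alike, and those SE values allow differences of more than 1 on the log2 scale. For Hoxb5, Hoxb7 and Hoxaas3 the sign turned when single libraries were left out.

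The median log2 fold change of the tested rows was -0.29 for DKO against WT, -0.20 for DKO against Sqstm1 KO and -0.02 for Sqstm1 KO against WT. Over all genes tested these medians were -0.02, -0.01 and -0.01. Within HoxA the median was 0.73 for DKO against WT and 0.76 for Sqstm1 KO against WT, and within HoxB it was -0.59 and -0.50. Groups did not overlap in 12 of 18 rows for DKO against WT (31.2% of all genes), 3 of 18 for DKO against Sqstm1 KO (21.0%) and 7 of 18 for Sqstm1 KO against WT (26.0%). Here too Hoxa10, Hoxaas3, Hoxb5 and Hoxb6 entered through the group in which they were high. These shares are therefore no measure of how often Hox genes differed.

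**Figure D3:**
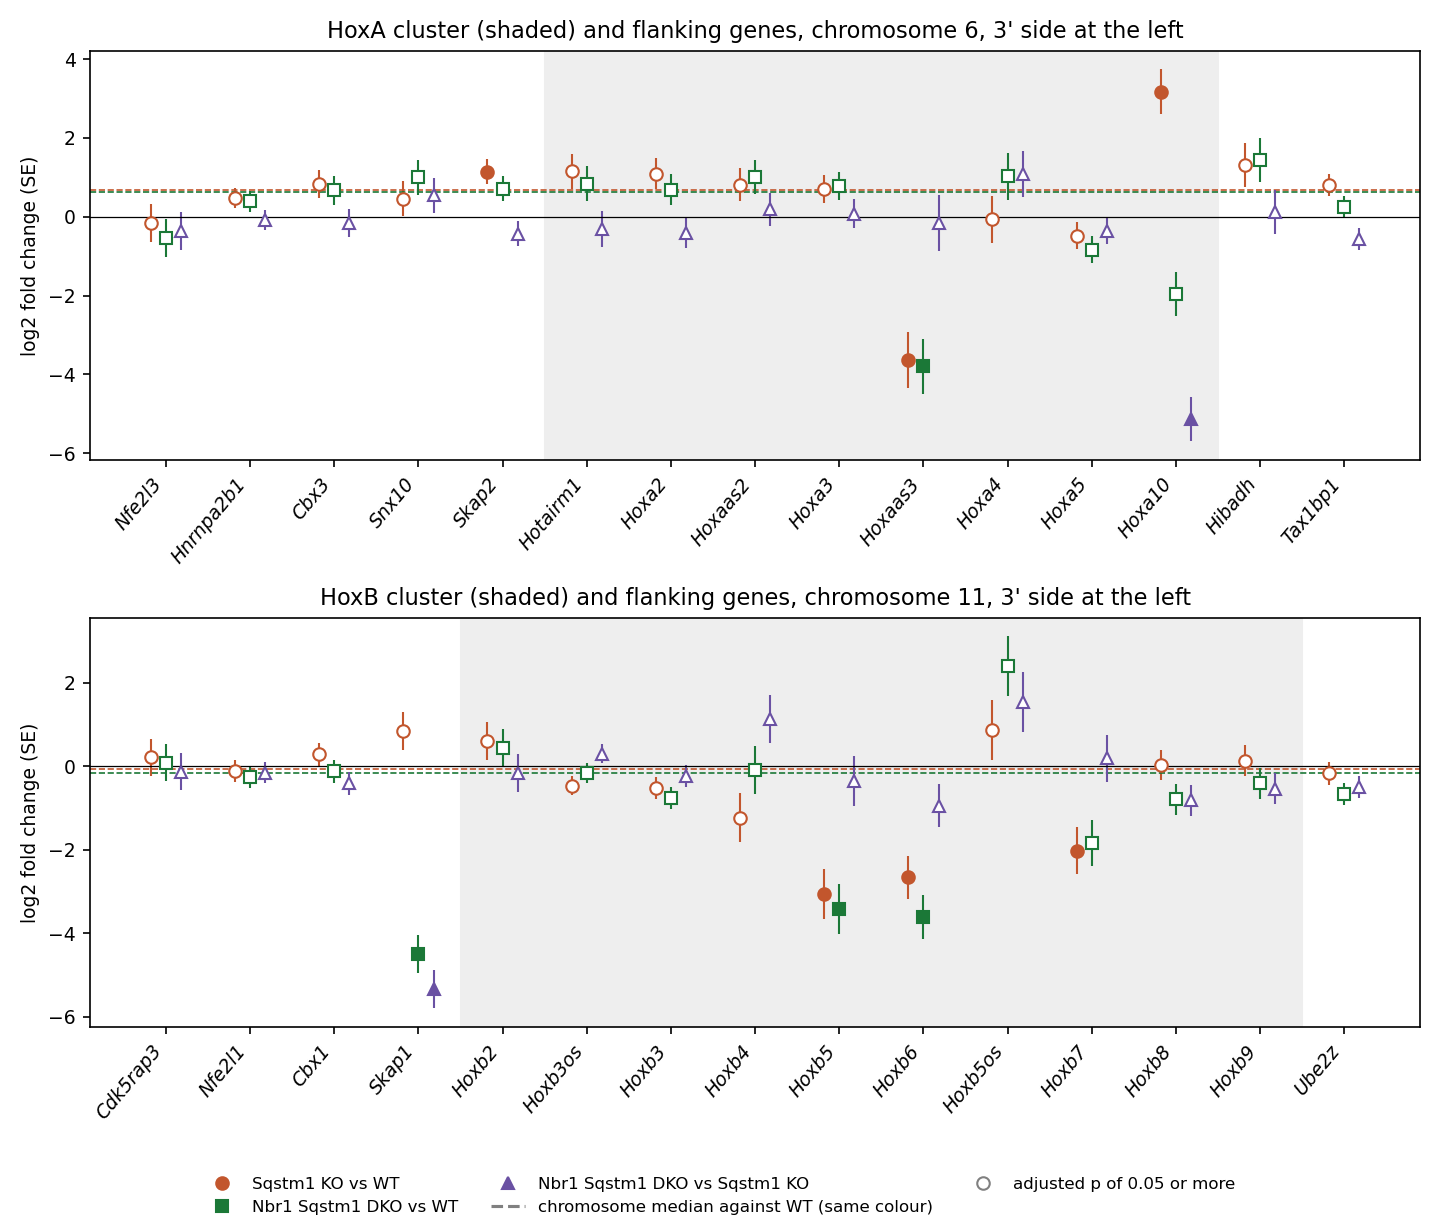
Log2 fold change with its SE (y axis) of the tested rows of HoxA and HoxB (shaded) and of listed flanking genes, in chromosome order from the 3′ side at the left, with filled symbols for an adjusted p under 0.05 and dashed lines at the median of the chromosome against WT. HoxA rows other than Hoxaas3, Hoxa5, Hoxa4 and Hoxa10 lie near the raised chromosome 6 line, and the Hoxb5 to Hoxb7 values lie well under the chromosome 11 line.

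The genes of chromosome 6, which carries HoxA, were mostly higher in both mutant groups than in WT. Over its 463 tested genes, the median log2 fold change was 0.61 for DKO against WT and 0.68 for Sqstm1 KO against WT, and -0.02 for DKO against Sqstm1 KO. A positive fold change was found for 86.6% of these genes in DKO against WT and 81.4% in Sqstm1 KO against WT. For DKO against WT 60 genes were called (13.0%), 57 of them higher, and for Sqstm1 KO against WT 57 were called (12.3%), 49 of them higher. On the other 19 chromosomes the medians lay between -0.34 and 0.57 for DKO against WT and between -0.34 and 0.32 for Sqstm1 KO against WT. Library by library, the chromosome 6 median relative to the WT mean was 0.62, 0.67 and 0.59 in the libraries labelled DKO, 0.62, 0.65 and 0.69 in Sqstm1 KO, and -0.001, -0.015 and 0.046 in WT. All 6 mutant libraries thus carried the shift. The chromosome 6 median was looked at after the values were seen, and what it contributes to the HoxA values was not tested.

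Relative to the chromosome 6 median, the Sqstm1 KO against WT values were 0.02 for Hoxa3, 0.13 for Hoxaas2, 0.41 for Hoxa2 and 0.47 for Hotairm1. These rows at the 3′ end thus stood at most 0.47 from the chromosome's median. Hoxa10 stood above the median at 2.49, and Hoxa4 at -0.75, Hoxa5 at -1.17 and Hoxaas3 at -4.32 stood under it. For DKO against WT, Hoxa10 stood under the median at -2.58, as did Hoxa5 at -1.46 and Hoxaas3 at -4.42, and Hoxa4 stood above it at 0.41. Hoxa10 and Hoxa4 thus lay on opposite sides of the median in the 2 comparisons. For the HoxB rows the chromosome 11 median was -0.17 for DKO against WT and -0.06 for Sqstm1 KO against WT. Relative to it, Hoxb5, Hoxb6 and Hoxb7 stood at -3.24, -3.44 and -1.67 for DKO and at -3.00, -2.60 and -1.97 for Sqstm1 KO. Rows with small fold changes could change sign: for DKO against WT, Hoxb4 went from -0.10 to 0.08 and Hoxb3os from -0.17 to 0.01.

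**Figure D4:**
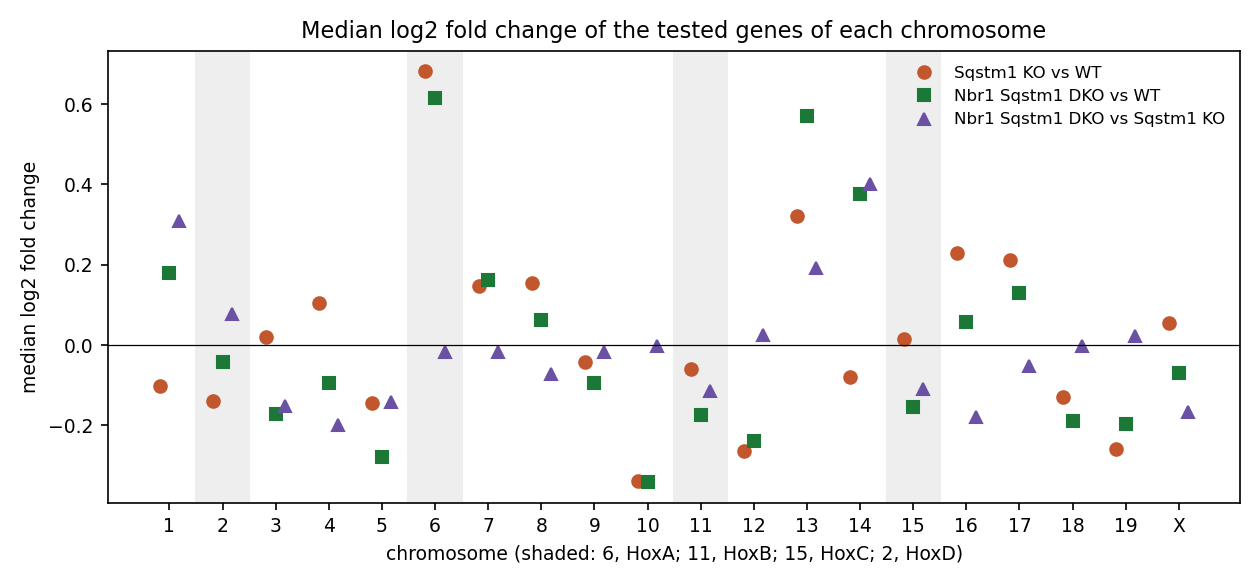
Median log2 fold change (y axis) of the tested genes of each chromosome (x axis) in the 3 comparisons, with the chromosomes of the Hox clusters shaded. Chromosome 6 is the highest against WT in both mutant groups, at 0.61 for DKO and 0.68 for Sqstm1 KO, and is at -0.02 between DKO and Sqstm1 KO.

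Genes beside the clusters were compared in the same way. Limma called 5.61% of all genes for Sqstm1 KO against WT, 5.93% for DKO against Sqstm1 KO and 6.42% for DKO against WT. None of the 5 HoxC and 6 HoxD flanking genes tested was called by limma in any comparison. At an unadjusted limma p under 0.05 were 1 of HoxC and 2 of HoxD for DKO against WT. There were 1 and 1 for Sqstm1 KO against WT, and 0 and 1 for DKO against Sqstm1 KO. DESeq2 called 1 HoxC flanking gene for DKO against WT. Of the 7 tested HoxA flanking genes listed, Skap2, a signalling adaptor, was called higher in Sqstm1 KO, with 55.4 ± 10.0 normalized counts in Sqstm1 KO and 25.1 ± 7.63 in WT (log2 fold change 1.14, SE 0.32, adjusted p = 0.0496, lost in 13 of 18 alternatives). The flanking genes of HoxA had a median log2 fold change of 0.67 for DKO against WT and 0.80 for Sqstm1 KO against WT. Of the 6 tested HoxB flanking genes, 1 was called in each DKO comparison and none between Sqstm1 KO and WT, where limma found 0 at an unadjusted p under 0.05 and edgeR and DESeq2 also called 0. This was Skap1, a T-cell adaptor gene that lies 96.3 kb from the cluster on its 3′ side. It had 0 reads in all 3 libraries labelled DKO, 26.5, 32.5 and 71.6 normalized counts in Sqstm1 KO, and 21.8, 22.6 and 20.6 in WT. No library of the other groups came near 0. Skap1 was at least 39.3-fold lower in the libraries labelled DKO than in Sqstm1 KO (adjusted p = 7.3e-06) and at least 19.6-fold lower than in WT (adjusted p = 3.4e-05), and both calls held in all 18 alternatives. The HoxB cluster, Skap1, Sqstm1 and Nbr1 all lie on chromosome 11.

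On the 5′ side of HoxB, at 351.8 kb, Abi3, a regulator of the actin skeleton, averaged 109 ± 10.2 normalized counts in the libraries labelled DKO, 35.8 ± 6.42 in Sqstm1 KO and 159 ± 58.2 in WT. It was lower in Sqstm1 KO than in WT (log2 fold change -2.07, SE 0.29, adjusted p = 0.00077) and higher in DKO than in Sqstm1 KO (1.59, SE 0.29, adjusted p = 0.0044). Abi3 was named after its value was seen, among 34 genes of the table within 1000 kb of HoxB. Of the 23 of these that were tested, 1 (4.35%) was called in DKO against WT, 2 (8.70%) in DKO against Sqstm1 KO and 1 (4.35%) in Sqstm1 KO against WT. The shares of all genes were 6.42%, 5.93% and 5.61% in the same order of comparisons.

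The proteins that act with or on the Hox clusters were counted by list. Over all genes tested, limma called 6.42% for DKO against WT, 5.93% for DKO against Sqstm1 KO and 5.61% for Sqstm1 KO against WT. Of the Polycomb genes it called 4.55% in each DKO comparison, below those shares. None of 4 tested genes of the PBX and MEIS families, whose proteins bind DNA with HOX proteins, was called against WT in either mutant group by limma, edgeR or DESeq2, with 0 at an unadjusted limma p under 0.05 for DKO and 1 for Sqstm1 KO. Between DKO and Sqstm1 KO, 1 of the 4 was called, higher in DKO by limma, and edgeR and DESeq2 also called 1. Of 22 tested Polycomb genes, Aebp2, a partner of the PRC2 complex that lies on chromosome 6, was higher in DKO than in WT, with 131 ± 33.2 and 64.1 ± 6.83 (log2 fold change 0.99, SE 0.26, adjusted p = 0.0363, lost without any single one of the 6 libraries compared). Rbbp4, a histone-binding subunit of PRC2 and of other complexes, was lower in DKO than in Sqstm1 KO, with 177 ± 32.8 and 514 ± 73.5, against 305 ± 13.9 in WT (log2 fold change -1.54, SE 0.24, adjusted p = 0.0014). No Polycomb gene was called by limma or edgeR between Sqstm1 KO and WT, where 2 had an unadjusted limma p under 0.05 and DESeq2 called Rbbp4. None of 14 Trithorax and H3K27 demethylase genes was called by limma, edgeR or DESeq2 in any comparison, with 2 at an unadjusted limma p under 0.05 for DKO against WT and 0 in the other comparisons.

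Genes of retinoic acid handling, the signal that opens the 3′ end of Hox clusters in embryos, were listed too. Of 7 tested, 2 were called in Sqstm1 KO against WT (5.61% of all genes), Rarb and Aldh1a1. For DKO against Sqstm1 KO 3 of the 7 were called (5.93% of all genes), these genes among them, and for DKO against WT 1 (6.42%). Rarb, a retinoic acid receptor that is itself induced by retinoic acid, had 12.4, 9.13 and 14 normalized counts in the libraries labelled DKO, 3.06, 2.43 and 1.08 in Sqstm1 KO, and 15, 12.1 and 10.3 in WT. It was lower in Sqstm1 KO than in both other groups, by a log2 fold change of -2.11 (SE 0.48, adjusted p = 0.0179) against WT, and higher in DKO than in Sqstm1 KO by 2.04 (SE 0.48, adjusted p = 0.0198). The Rarb call against WT was lost without any single WT library. That of DKO against Sqstm1 KO was lost without DKO replicate 1 or 3, and with only the groups compared. Over a group, Rarb had 32 reads in the libraries labelled DKO, 7 in Sqstm1 KO and 44 in WT. Aldh1a1, an enzyme that makes retinoic acid, averaged 0.805 ± 0.700 in the libraries labelled DKO, 21.9 ± 9.62 in Sqstm1 KO and 3.57 ± 3.44 in WT. It was higher in Sqstm1 KO than in WT (log2 fold change 2.49, SE 0.67, adjusted p = 0.0444, lost in 7 of 18 alternatives, among them without any single Sqstm1 KO library or WT replicate 1 or 3) and lower in DKO than in Sqstm1 KO (-3.67, SE 0.67, adjusted p = 0.0040). None of these values is a measure of retinoic acid itself.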

How the data were processed

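RNA of 9 libraries was measured in 3 groups of 3, taken from the genotype label. The deposited signal values are normalized counts, made by the authors from gene counts and a single scaling factor for a library. Per the submitters' processing notes, STAR and DESeq2 were among the tools and GRCm39 was the build, with versions not given in the sources used here. Dividing by the smallest value of the library gave whole reads, within 0.01, for 100% of the 121126 values above 0. Floors are 3 counts over a group and cover counting error only, since reads are not independent molecules. No gene had fewer than 14 reads in total.

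Groups were compared with limma 3.58.1 in R 4.3.3, with a mean-variance trend on log2(value + 1). The 10118 genes that reached 10 in 3 or more libraries entered, with all 9 libraries in 3 groups, two-sided, Benjamini-Hochberg adjusted over all genes, threshold 0.05. Fold changes on this scale understate those of low rows. An exact permutation test of 3 against 3 cannot go below 0.1. On the recovered reads, edgeR 4.0.16's quasi-likelihood test called 735 genes for DKO against WT, 614 for DKO against Sqstm1 KO and 642 for Sqstm1 KO against WT, against 650, 600 and 568 with limma. DESeq2 1.42.0 was another alternative, beside other pseudocounts, filters, scalings, a replicate block and leaving out each library. The fit was tested on simulated counts with the same extra spread for all genes and no outlying library. That test does not show how the fit handles a library such as Sqstm1 KO replicate 3. GENCODE release 21 and RefSeq promoters are on GRCm38 and gave names (21 of 22 rows), order, overlaps and sequences. Every row called in a comparison is named with all its library values, other rows by cluster, and up to 4 called genes of each list of cofactors. The rows and lists were chosen with earlier results of these data known. Some genes of these lists and 1 sequence are not reported here.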

Additional observations from a re-analysis of the deposited data

How the results depend on the processing

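The number of Hox rows called was 0 in all 3 comparisons when a value of at least 50 was required, which left 5 rows to test. Hoxa10, Hoxaas3, Hoxb5, Hoxb6 and Hoxb7 did not reach that level, so this setting cannot show whether their calls hold. For DKO against WT, where 3 rows were called, the number was 5 with a pseudocount of 5, 6 with quantile normalization, with edgeR and with DESeq2, and 7 with only the groups compared. For DKO against Sqstm1 KO, where 1 row was called, it was 2 with no filter, which added Hoxa7. Leaving out single libraries gave 3 to 9 calls for DKO against WT (5 without Sqstm1 KO replicate 1, 9 without replicate 3), 1 to 2 for DKO against Sqstm1 KO (2 without Sqstm1 KO replicate 3, which added Hoxb4) and 1 to 7 for Sqstm1 KO against WT. In that last comparison, without WT replicate 1 only Hoxa10 was called. The causes were not tested.

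Log2 fold changes for DKO against Sqstm1 KO changed sign with single libraries left out, over a range of -0.73 to 0.32 for Hoxaas3 (0.28 without Sqstm1 KO replicate 1, 0.32 without DKO replicate 1), -0.73 to 0.24 for Hoxb5 (0.24 without Sqstm1 KO replicate 3) and -0.51 to 0.77 for Hoxb7 (-0.51 without Sqstm1 KO replicate 1, -0.27 without DKO replicate 1). Hoxa10, Hoxb6 and Hoxb5os kept their sign in every comparison and alternative run, and the remaining Hox rows were not followed by gene through the alternatives. The chromosome 6 median stayed between 0.52 and 0.68 for DKO against WT and between 0.59 and 0.74 for Sqstm1 KO against WT. Same-numbered libraries had correlations of their deviations from -0.115 to 0.178, so the numbers were not taken as pairs. With the replicate block 4 rows were called for DKO against WT, 1 for DKO against Sqstm1 KO and 5 for Sqstm1 KO against WT. Rows with fewer than 10 reads in a group, such as Hoxb5, Hoxb6 and Hoxaas3 in the libraries labelled DKO, cannot show further differences at this depth.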
